A study of Homo sapiens with 6 samples.

Results

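The SOX transcription factors described here are 9 genes, SOX2, SOX4, SOX5, SOX6, SOX8, SOX9, SOX11, SOX12 and SOX13, of 26852 genes in the deposited tables. RefSeq entries were matched to gene symbols, the entry on a primary chromosome with the largest mean was kept for each gene, and these SOX genes were then chosen from the family with their fold changes in these tables known. Those values chose the genes, so the changes between groups are given as a description. Where calls, standard errors or adjusted p-values of these genes are quoted, they describe the fits and are not independent evidence. All 9 had reads, and all 9 were tested by the authors in every comparison.

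RNA sequencing was done on U2OS 2-6-3 cells, a human osteosarcoma line that carries a chromosomal reporter array with tet operators. Untransfected cells received no plasmid. Mock cells were transiently transfected with TetR-RFP and YFP, and sample cells with mCherry-MCP, CIBN-TetR and PHR-YFP-VP16, both with the same reagent. All 3 groups, of 2 libraries each, were kept in doxycycline-free serum and under white light overnight, so no group shows the cells in the dark. In sample cells, PHR binds CIBN in blue light, and VP16, a viral activator, is carried with it to the operator-bound TetR. The share of cells that took up plasmid is not given in the sources used here, and each bulk value averages over cells with and without it. A lower bulk value can come from fewer cells with the RNA or from less RNA per cell, which cannot be told apart.

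SOX proteins bind DNA through a high mobility group (HMG) box, which recognises a short sequence related to AACAAT and bends the helix. The family is divided by sequence: SOX2 is of group B1, SOX4, SOX11 and SOX12 are of group C, SOX5, SOX6 and SOX13 of group D, and SOX8 and SOX9 of group E. SOX2 maintains pluripotent and neural progenitor cells, and it is studied in osteosarcoma as a marker of tumour-initiating cells. SOX9 with SOX5 and SOX6 drives cartilage formation, and in bone-forming lineages SOX9 marks the early skeletal progenitor.

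Promoter sequence was available from RefSeq (build GRCh38.p14) for 6 of the 9 genes, SOX2, SOX4, SOX5, SOX6, SOX12 and SOX13. The 250 bases upstream of the annotated start are shown for the 5 genes that were lower in mock cells, with SOX13, which was not called, for contrast. Each run is written 5′ to 3′ on the strand of the gene, and capitals mark every match to CCAAT or GGGCGG on either strand (ATTGG and CCGCCC in reverse).
SOX2 (chr3:181711675-181711924, plus strand): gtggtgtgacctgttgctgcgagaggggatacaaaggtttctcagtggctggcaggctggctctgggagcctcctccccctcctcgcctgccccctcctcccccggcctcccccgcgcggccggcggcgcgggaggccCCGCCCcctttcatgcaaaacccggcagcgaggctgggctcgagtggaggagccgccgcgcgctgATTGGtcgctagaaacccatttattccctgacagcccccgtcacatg
SOX4 (chr6:21593501-21593750, plus strand): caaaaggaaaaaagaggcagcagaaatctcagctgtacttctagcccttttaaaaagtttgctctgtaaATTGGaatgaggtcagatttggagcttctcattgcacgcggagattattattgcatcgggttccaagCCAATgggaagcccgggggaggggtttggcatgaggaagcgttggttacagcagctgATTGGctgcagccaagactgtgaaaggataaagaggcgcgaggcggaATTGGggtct
SOX12 (chr20:325302-325551, plus strand): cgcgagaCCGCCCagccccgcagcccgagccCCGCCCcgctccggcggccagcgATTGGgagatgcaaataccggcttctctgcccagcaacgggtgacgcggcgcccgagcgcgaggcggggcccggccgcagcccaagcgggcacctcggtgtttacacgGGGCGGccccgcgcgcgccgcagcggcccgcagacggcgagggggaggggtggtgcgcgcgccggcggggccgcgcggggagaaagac
SOX5 (chr12:24562492-24562741, minus strand): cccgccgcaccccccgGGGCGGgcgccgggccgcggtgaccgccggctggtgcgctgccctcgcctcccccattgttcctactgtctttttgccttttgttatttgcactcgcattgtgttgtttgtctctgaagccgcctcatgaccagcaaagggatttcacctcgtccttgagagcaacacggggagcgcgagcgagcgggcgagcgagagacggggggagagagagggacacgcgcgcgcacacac
SOX6 (chr11:16476389-16476638, minus strand): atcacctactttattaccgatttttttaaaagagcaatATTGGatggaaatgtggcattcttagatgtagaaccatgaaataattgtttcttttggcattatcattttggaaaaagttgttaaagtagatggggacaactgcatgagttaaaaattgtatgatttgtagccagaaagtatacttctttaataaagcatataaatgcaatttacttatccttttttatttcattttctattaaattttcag
SOX13 (chr1:204072865-204073114, plus strand): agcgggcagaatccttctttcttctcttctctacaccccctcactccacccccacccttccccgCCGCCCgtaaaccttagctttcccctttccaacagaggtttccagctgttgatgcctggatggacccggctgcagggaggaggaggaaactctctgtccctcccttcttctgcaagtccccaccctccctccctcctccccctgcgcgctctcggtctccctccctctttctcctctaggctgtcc

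The windows did not share a base composition. The share of guanine and cytosine was 79.2% at SOX12 and 68.8% at SOX2, against 48.8% at SOX4 and 27.2% at the SOX6 start used here, with a median of 58.0% over 34943 windows of the same length. CCAAT occurred 4 times at SOX4, once each at SOX2, SOX12 and SOX6, and not at SOX5 or SOX13. It was found in 32.0% of all windows. GGGCGG occurred 3 times at SOX12, once at SOX2, SOX5 and SOX13, and not at SOX4 or SOX6, with 42.5% of all windows holding it. SOX6 has other annotated starts, and the window of the farthest upstream one (chr11:16738478-16738727), not shown, had 58.8% guanine and cytosine and held GGGCGG once. That start lies 262089 bases from the one used here. Only 0.5% of all windows had a lower share than the SOX6 window shown. The shown window ends in ttttcag, letters that can also close an intron, and whether it acts as a promoter was not tested. The letters AACAAT, the core of the SOX site, were present in the windows of SOX5 and SOX6 and in 9.0% of all windows. No letter pattern was common to the 5 windows of the lower genes among those searched, which also included a TATA box (TATAAA), an AP-1 site (TGANTCA) and an E box (CACGTG). A match is a description of the sequence and not a binding site.

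Libraries held 44594507 to 54177551 reads summed over all entries, apart from the shallower sample library with 9579278. Entries of the same gene can share reads, so these sums can count a read more than once. Within a group the deeper library is called a and the shallower b. Values are read counts divided by the size factor of the library, called normalized counts, with the reads of each library recovered from the deposited means. Whether the replicates came from separate cultures is not stated in the labels. The p-values therefore cover only the spread of these 6 libraries, which may be technical. With 2 against 2 libraries an exact permutation test of 1 gene cannot go below 0.333, so calls rest on the model the authors fitted across all genes. A gene is called where the adjusted p in the authors' deposited table is under 0.05. The sample libraries differed from each other more than those of other groups: the log2 ratio of b to a had an SD over 14893 genes of 0.60, against 0.30 in mock and 0.24 in untransfected cells. VIM, SPARC, FN1 and COL1A1, which are general mesenchymal genes, had reads, and the mesenchymal and osteoblast list summed to 89368 to 110342 normalized counts per library. Its members IBSP, TWIST1 and DLX5 had no reads, and SP7 had no adjusted p in any comparison. Among its osteoblast genes, RUNX2 fell, with deposited log2 fold changes of -2.49 in mock and -1.76 in sample cells. ALPL rose, with 3.62 and 3.05. Among the other genes of the list, SPARC, COL3A1 and PDGFRB fell in both comparisons and FN1 rose in both. COL1A1 was called lower and VIM higher in mock cells only. These values do not settle the cell type or the osteosarcoma label. In mock cells 4 of 13 tested members of this list rose and 5 fell, and in sample cells 3 rose and 4 fell. Shares over all tested genes were 27.5% higher and 23.3% lower in mock cells, and 20.2% higher and 17.1% lower in sample cells. Epithelial markers summed to 14275 to 17750, of which most came from KRT8 and KRT18, but 4 of the 8 tested fell in mock cells and 1 rose, and 4 of 7 fell in sample cells and 1 rose. KRT18 rose from 5316 to 9808 in mock and 9645 in sample cells. CLDN4 fell from 1458 to 114 and 142, KRT14 from 369 to 71.4 and 74.4, and KRT5 from 353 to 29.2 and 26, so these markers were lower in the same groups as SOX2, SOX4, SOX5 and SOX6. EPCAM fell from 182 to 65.7 and 58.9, and the deposited median of the list was -0.95 in mock and -1.43 in sample cells. Blood cell markers summed to 17.8 to 31.9 in untransfected and mock libraries and to 74.1 to 125 in sample libraries, where HBB alone of them was called, at a mean of 82.5 against 3.11 and 7.53 in untransfected and mock cells, with CD3E, HBA2 and GATA1 at 0 throughout. The part of these marker differences in the SOX values was not tested. The reporter RNA stood at 23754 and 24794 normalized counts in sample cells and at 26.4 to 63.8 in the other libraries.

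Against untransfected cells, mock cells had 5 of 9 SOX genes lower, SOX2, SOX4, SOX5, SOX6 and SOX12, and 0 higher in the authors' deposited table. In that comparison 50.9% of the 17093 genes tested were called in either direction, 23.3% lower and 27.5% higher. Sample cells had 4 of 9 lower, SOX2, SOX4, SOX5 and SOX6, and 0 higher, where 37.3% of 15567 genes were called, 17.1% lower and 20.2% higher. The median deposited log2 fold change of the 9 genes was -1.41 in mock and -0.18 in sample cells, and over all tested genes it was -0.00385 and -0.00273. By limma, which does not shrink and had values for 8 of the 9, the medians were -1.92 and -1.58. Limma-voom, fitted on recovered reads, called the same 5 genes lower in mock cells and 5 lower in sample cells, with SOX12 added. By that fit 59% and 50.6% of 14893 genes were called. Both mock libraries were below both untransfected ones at 6 SOX genes and above them at 1, as at 40.6% and 39% of all tested genes. For sample libraries these counts were 4 and 1, with 37.3% and 36.6% of all tested genes. Since the genes were chosen with these results known, nothing is read from these shares. Both comparisons use the same untransfected libraries.

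**Figure D1:**
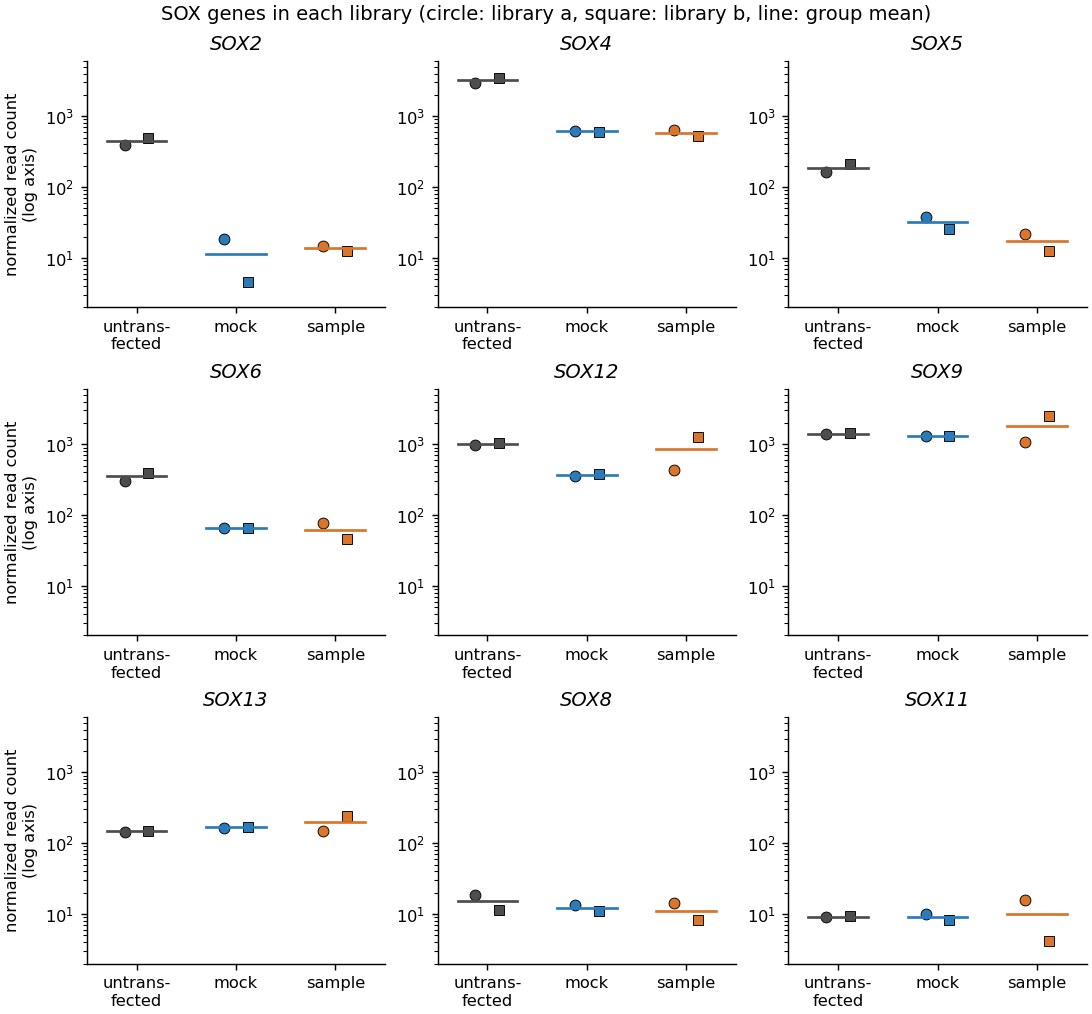
Normalized read counts of the 9 SOX genes (log axis) in the 2 untransfected, 2 mock and 2 sample libraries, with circles for library a, squares for library b and a line at the group mean. SOX2, SOX4, SOX5 and SOX6 lie lower in all transfected libraries, SOX12 is high in sample library b and low in the other transfected libraries, and SOX8 and SOX11 are low throughout.

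SOX2 is encoded by 1 exon on chromosome 3, at 181711924 to 181714436 in hg38. By library, normalized counts were 394 and 498 without transfection, 18.4 and 4.64 in mock cells and 14.9 and 12.4 in sample cells. The transfected libraries were all far below the untransfected ones, and the mock libraries differed from each other by more than the sample libraries did. Of the 9 genes, SOX2 had the largest difference from untransfected cells, and it rests on few reads. Untransfected libraries had 607 and 699 reads, mock libraries 26 and 5, and sample libraries 19 and 3. Mock cells held 2.81% of the untransfected reads after scaling for library size (exact 95% interval 1.90% to 4.0%, counting error only), and sample cells 3.26% (2.03% to 4.95%). The log2 fold change in the authors' deposited table, where changes are shrunk toward 0, was -3.11 (SE 0.52) in mock and -4.27 (SE 0.33) in sample cells. The limma-voom estimates from the recovered reads were -5.43 (SE 0.49) and -4.89 (SE 0.51), without that shrinkage. In mock cells the limma estimate was -6.45 without mock library a and -4.57 without mock library b.

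SOX2 lies inside SOX2-OT, a long noncoding RNA gene on the same strand, so reads over SOX2 could be shared between them. SOX2-OT was at 8.45 and 8.55 normalized counts in untransfected libraries, 0.71 and 0 in mock libraries, and 0.78 and 0 in sample libraries. These are 25 reads in untransfected cells and 1 read in each transfected group, a ratio of 4.73% for mock cells (exact 95% interval 0.115% to 28.9%). It was called in mock cells, with a deposited log2 fold change of -1.32 (adjusted p = 0.0247, DESeq2), and the authors' deposited table holds no adjusted p for it in sample cells.

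Genes that work with SOX2 or mark stem cells were called in both directions. Of 15 tested in mock cells 4 rose and 6 fell, and of 13 in sample cells 4 rose and 3 fell. Over all tested genes 27.5% rose and 23.3% fell in mock cells, and 20.2% rose and 17.1% fell in sample cells. Nothing is read from the counts of this list, which was not tested. NES, which encodes the progenitor filament nestin, fell from 6231 to 2641 in mock and 2662 in sample cells, with deposited log2 fold changes of -1.21 and -1.22. CHD7, a chromatin remodeller that binds with SOX2, rose from 1298 to 2063 and 1874. MSI2, an RNA-binding protein of progenitors, fell from 1510 to 1124 and 1048. POU2F1, of the POU family that pairs with SOX proteins on DNA, fell from 1964 to 1676 in mock cells and stood at 1732 in sample cells, where it was not called. The pluripotency factors POU5F1 and NANOG had no reads in any library. The median log2 fold change of this list was -0.43 in mock and -0.19 in sample cells.

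SOX4, which acts in progenitor growth and neuronal and bone cell differentiation, is encoded by 1 exon on chromosome 6, at 21593741 to 21598619. Untransfected cells gave 2988 and 3423 normalized counts in their libraries, mock cells 628 and 608 and sample cells 645 and 527. The untransfected libraries were above all others, and the mock and sample libraries overlapped. Mock cells held 19.4% of the untransfected reads after scaling (exact 95% interval 18.4% to 20.5%) and sample cells 19.6% (18.3% to 21.0%). The authors' deposited log2 fold changes were -2.34 (SE 0.10) and -2.37 (SE 0.15), and limma gave -2.38 and -2.39.

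CASC15, a long noncoding RNA gene downstream of SOX4 on chromosome 6, was at 23.4 and 24.9 normalized counts in untransfected libraries, 0 and 2.78 in mock libraries, and 3.13 and 0 in sample libraries. These are 71 reads against 3 and 4, a ratio of 5.0% in mock cells (exact 95% interval 1.01% to 15.2%) and 10.9% in sample cells (2.89% to 29.1%). CASC15 fell in both comparisons, with deposited log2 fold changes of -2.25 (adjusted p = 6.28e-05, DESeq2) and -1.35 (adjusted p = 0.0221, DESeq2).

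SOX12, the broadly expressed member of group C, is encoded by 1 exon on chromosome 20, at 325571 to 330228. Untransfected libraries held 966 and 1044 normalized counts, mock libraries 362 and 378 and sample libraries 428 and 1260. Sample library a was near the mock libraries and sample library b was the highest of all 6. Mock cells held 36.8% of the untransfected reads after scaling (exact 95% interval 34.2% to 39.7%), and the authors' deposited log2 fold change was -1.41 (SE 0.12). In sample cells it was -0.17 (SE 0.48) and not called, while limma, which weighs the deeper library more, gave -0.84 (SE 0.30) and called it. Without sample library b the limma estimate was -1.22 and called, and without sample library a it was 0.32 and not called, so the direction rests on which sample library is used.

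NRSN2-AS1 lies 300 bases from SOX12 and is a long noncoding RNA gene. It averaged 85.5 normalized counts in untransfected, 31.1 in mock and 40.6 in sample cells. It fell in mock cells, with a deposited log2 fold change of -1.29 (adjusted p = 0.000309, DESeq2), and was not called in sample cells (-0.90, adjusted p = 0.0574, DESeq2).

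SOX11, the third member of group C and a neuronal progenitor factor, is encoded by 1 exon on chromosome 2, at 5692667 to 5701385. By library, normalized counts were 9.10 and 9.27 without transfection, 9.93 and 8.35 in mock cells and 15.6 and 4.12 in sample cells. The groups overlapped, with 27, 23 and 21 reads in all. The ratio of mock to untransfected reads was 101% (exact 95% interval 55.2% to 182%), so a change of less than about that size was not detectable at this depth.

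Genes reported to be bound by SOX4 and SOX11 in neuronal cells were counted in the same way. In mock cells 10 of 18 tested fell and 1 rose, and in sample cells 10 of 17 fell and 1 rose. Of all tested genes 23.3% fell and 27.5% rose in mock cells, and 17.1% fell and 20.2% rose in sample cells. The list itself was not tested. DBN1, an actin-binding protein of neurites, fell from 10511 to 6613 in mock and 6686 in sample cells. TUBB3, a neuronal tubulin, fell from 6617 to 3660 and 3949, with deposited log2 fold changes of -0.83 and -0.74. STMN1, a regulator of microtubules, and SEMA3C, a secreted guidance cue, fell in both comparisons as well. PLXNA2, a semaphorin receptor, was the gene that rose, from 146 to 655 and 634. It is named here after its values were seen. The median log2 fold change of the list was -0.56 in both, against -0.00385 and -0.00273 for all genes.

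SOX5 lacks an activation or repression domain of its own and acts beside other SOX proteins. Its kept entry has 17 exons in GENCODE 29 and lies on chromosome 12, at 23532297 to 24562449 on the minus strand. Untransfected cells gave 161 and 212 normalized counts in their libraries, mock cells 37.6 and 26 and sample cells 21.9 and 12.4. The 3 groups did not overlap: both sample libraries were below both mock libraries. Only 3 reads came from sample library b and 28 from sample library a, where mock libraries gave 53 and 28 and untransfected libraries 248 and 297. Mock cells held 17.6% of the untransfected reads after scaling (exact 95% interval 13.7% to 22.2%) and sample cells 11% (7.40% to 15.8%). The authors' deposited log2 fold changes were -2.33 (SE 0.28) and -2.68 (SE 0.38), and limma gave -2.53 and -3.22.

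SOX5 was listed under 4 transcript entries that share most reads. The long entry starts at the upstream promoter, and the shortest spans 52316 bases at the 3′ end of the gene. The deposited log2 fold changes of the 4 entries ran from -2.18 to -2.53 in mock and from -2.44 to -2.83 in sample cells. All 4 were called lower in both comparisons. SOX6 had 3 entries with nearly the same reads, 1019 to 1026 in untransfected cells, so its isoforms could not be told apart.

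SOX6, the partner of SOX5 in cartilage, has 16 exons and lies on chromosome 11, at 15966449 to 16476388 on the minus strand. Untransfected libraries held 303 and 398 normalized counts, mock libraries 65.9 and 66.8 and sample libraries 78.2 and 45.3. All transfected libraries were below the untransfected ones, and the sample libraries lay on either side of the mock libraries. Mock cells held 19.0% of the untransfected reads after scaling (exact 95% interval 16.0% to 22.4%) and sample cells 20.9% (17.0% to 25.5%). The authors' deposited log2 fold changes were -2.28 (SE 0.21) and -2.14 (SE 0.31), and limma gave -2.39 and -2.32. C11orf58, which lies 170 bases from the farthest upstream SOX6 start, was at 2982, 3291 and 2990 normalized counts in the 3 groups and was not called.

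SOX13, the remaining group D gene, has 14 exons and lies on chromosome 1, at 204073118 to 204127743. By library, normalized counts were 144 and 149 without transfection, 163 and 171 in mock cells and 150 and 243 in sample cells. The transfected libraries were all above the untransfected ones, by little in all but sample library b. The authors' deposited log2 fold changes were 0.20 (SE 0.21) in mock and 0.33 (SE 0.30) in sample cells, and neither was called. Without sample library a, limma gave 0.73 in sample cells, which was called. Within group D, SOX5 and SOX6 were lower in both transfected groups and SOX13 was not called.

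SOX9, the main regulator of cartilage cells, has 3 exons and lies on chromosome 17, at 72121020 to 72126420. Untransfected cells gave 1375 and 1447 normalized counts in their libraries, mock cells 1288 and 1293 and sample cells 1076 and 2516. The sample libraries were the lowest and the highest of the 6. The authors' deposited log2 fold changes were -0.11 (SE 0.09) in mock and 0.26 (SE 0.43) in sample cells, neither called. Without sample library b the limma estimate in sample cells was -0.39, and without sample library a it was 0.82, both called, so no direction is given for SOX9 in sample cells.

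SOX9-AS1, a long noncoding RNA gene whose annotated span comes within 227 bases of SOX9, had a different pattern. The entry kept for it ends at 72116016, farther from the SOX9 start at 72121020. It holds the library values and ratios that follow. Untransfected libraries held 52.6 and 60.6 normalized counts, mock libraries 3.55 and 2.78 and sample libraries 5.48 and 0. All transfected libraries were far below the untransfected ones, on 166 reads against 8 and 7. The ratio was 5.70% in mock cells (exact 95% interval 2.42% to 11.5%) and 8.16% in sample cells (3.23% to 17.2%). The kept SOX9-AS1 entry fell in both comparisons, with deposited log2 fold changes of -3.03 (adjusted p = 1.85e-10, DESeq2) and -2.15 (adjusted p = 7.22e-05, DESeq2). A second entry, which ends nearer SOX9 at 72120793, had 45 reads in untransfected, 5 in mock and 2 in sample cells. That entry was called lower in mock cells (-1.51, adjusted p = 0.0105, DESeq2) and was not called in sample cells (-1.06, adjusted p = 0.0704, DESeq2). LINC01152, farther along the same side of SOX9, averaged 19.8, 14.4 and 11.2 normalized counts and was not called.

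**Figure D2:**
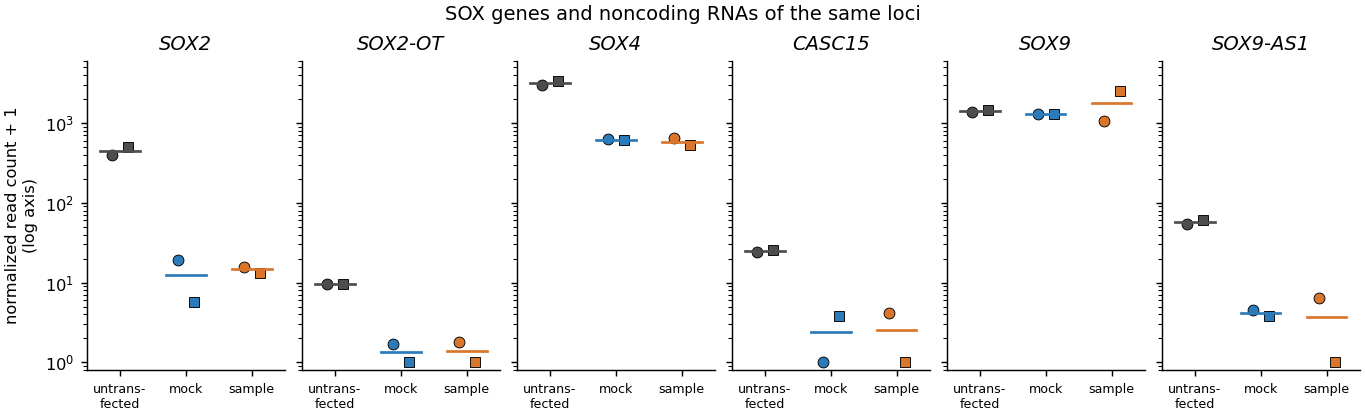
Normalized read counts plus 1 (log axis) of SOX2, SOX4 and SOX9, each beside a noncoding RNA of its locus, in the 2 libraries of each group. All 3 noncoding RNAs lie near 0 reads in transfected cells, beside a lower SOX2, a lower SOX4 and a SOX9 whose mock libraries stay at 1288 and 1293.

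SOX8, the other group E gene, has 3 exons and lies on chromosome 16, at 981808 to 986979. By library, normalized counts were 18.8 and 11.4 without transfection, 13.5 and 11.1 in mock cells and 14.1 and 8.24 in sample cells. The groups overlapped. The ratio of mock to untransfected reads was 81.4% (exact 95% interval 49.8% to 132%), and neither comparison called it.

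A list of cartilage genes that SOX9, SOX5 and SOX6 are known to activate was counted too. In mock cells 6 of 16 tested fell and 1 rose, and in sample cells 4 of 14 fell and 1 rose. All tested genes had shares of 23.3% and 27.5% in mock cells and 17.1% and 20.2% in sample cells, and the list was not tested. ACAN was not called, with deposited log2 fold changes of 0.008 and -0.54. COL2A1 was not called in mock cells (0.17) and had no adjusted p in sample cells (-0.19). HAPLN1, which links aggrecan to hyaluronan, was at 15959 and 16211 normalized counts in untransfected libraries, 3002 and 3295 in mock libraries, and 3450 and 2956 in sample libraries. COL11A1, a chain of a cartilage fibril collagen, fell from a mean of 4382 to 1118 and 1293, and COL9A2, a chain of a fibril-associated collagen, from 1646 to 426 and 399. The deposited log2 fold changes of these 3 genes ran from -1.91 to -2.33 in mock and from -1.72 to -2.29 in sample cells. COL27A1, another fibril collagen, rose from 201 to 647 and 518, with deposited log2 fold changes of 1.39 (adjusted p = 0.00233, DESeq2) and 1.28 (adjusted p = 1.56e-05, DESeq2). The mock libraries of COL27A1 stood apart, at 858 and 436, and both were above the untransfected libraries at 232 and 170. WWP2, which encodes a ubiquitin ligase and not a matrix protein, was as abundant as COL9A2 in untransfected cells. It was at 1640, 1614 and 1764 in the 3 groups and was not called. It is named after its values were seen. COMP, UCMA and EPYC had no reads. The median of the list was -0.19 in mock and -0.48 in sample cells.

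**Figure D3:**
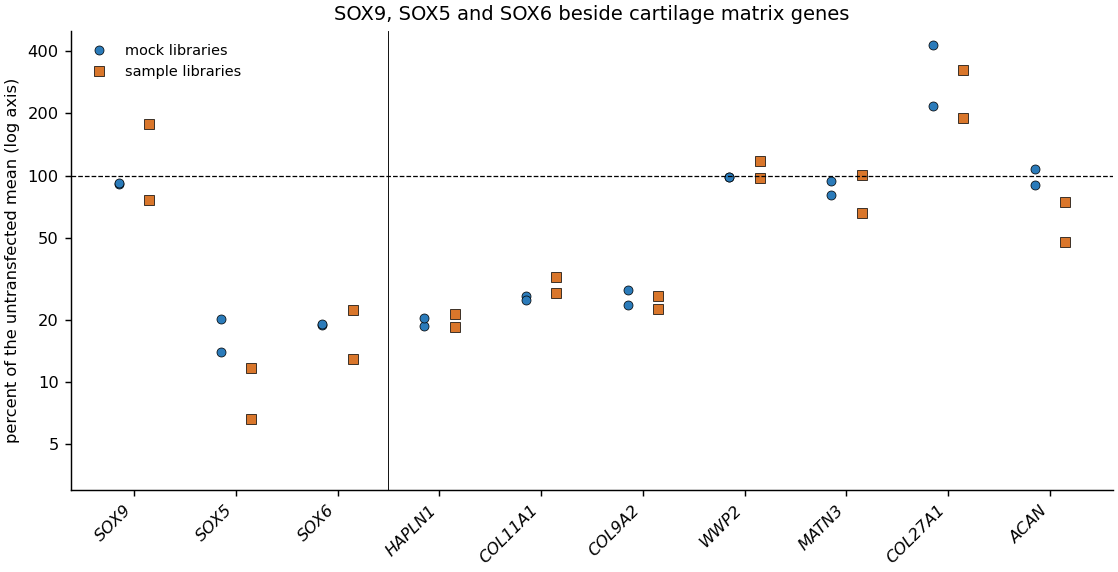
SOX9, SOX5 and SOX6 beside genes of the cartilage list that averaged 50 or more normalized counts, each library as a percent of the untransfected mean (log axis, dashed line at 100). HAPLN1, COL11A1 and COL9A2 lie low in all mock and sample libraries and COL27A1 high, while SOX9 is near the dashed line in mock and split in sample libraries.

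Hedgehog signalling acts upstream of SOX9 in skeletal development. In mock cells 9 of 15 tested genes of this pathway fell and 1 rose, and in sample cells 5 of 12 fell and 1 rose. Over all tested genes 23.3% fell and 27.5% rose in mock cells, and 17.1% fell and 20.2% rose in sample cells. The pathway list was not tested. SMO, the membrane transducer, fell from 1335 to 747 and 877 normalized counts. CDON, a co-receptor, fell from 470 to 214 and 208. GLI2 and GLI3, the transcription factors of the pathway, fell in mock cells from 555 to 261 and from 312 to 206, and were not called in sample cells at 432 and 303. GLI1 and PTCH1, the pathway's feedback targets, are named after their values were seen: they fell in both comparisons, GLI1 with deposited log2 fold changes of -2.83 and -2.12 and PTCH1 with -1.90 and -1.03. PTHLH, a secreted signal of growth cartilage and also named after its values were seen, was the gene that rose, from 56.7 to 232 and 175. The median of the list was -0.59 in mock and -0.48 in sample cells.

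The TCF and LEF factors share the HMG box fold with SOX proteins and carry the beta-catenin signal that SOX9 can oppose. With their partners, 3 of 19 tested rose and 10 fell in mock cells, and 3 rose and 6 fell in sample cells. The shares of all tested genes were 27.5% and 23.3% in mock cells and 20.2% and 17.1% in sample cells, and the list was not tested. Of the factors themselves, LEF1 rose, with deposited log2 fold changes of 0.93 and 1.07. TCF7L2 fell in mock cells (-0.66) and was not called in sample cells. ZNRF3, a feedback inhibitor of Wnt receptors, rose from 630 to 927 and 983, and AXIN1, a scaffold of the beta-catenin destruction complex, from 1082 to 1338 and 1363. PYGO2, a beta-catenin cofactor, fell from 1284 to 818 and 945. AXIN2, NOTUM, NKD1 and LGR4 also fell in both comparisons, AXIN2 with deposited log2 fold changes of -1.25 and -1.35 and LGR4 with -2.13 and -1.80. TLE5 fell from 2090 to 1469 in mock cells and stood at 2024 in sample cells, not called. Among 22 other HMG box genes 6 rose and 11 fell in mock cells and 3 rose and 7 fell in sample cells. TFAM, which packages mitochondrial DNA, rose from 4643 to 7002 and 6308. HMGXB3 rose from 2691 to 4609 and 4382, and UBTF, a ribosomal RNA transcription factor, fell from 5807 to 4771 and 4854. HMGB2, HMGB3, HBP1 and BBX, named after their values were seen, are among the others that fell in both comparisons. For HBP1 the deposited log2 fold changes were -1.22 and -1.11. The list of other HMG box genes was not tested either. The medians of these lists were -0.49 and -0.28 in mock cells and -0.10 and -0.17 in sample cells.

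Cofactors and regulators of SOX proteins were called in both directions: of 25 tested, 6 rose and 10 fell in mock cells, and 5 rose and 6 fell in sample cells. Among all tested genes 27.5% rose and 23.3% fell in mock cells, and 20.2% rose and 17.1% fell in sample cells. KPNB1, an importin that carries SOX proteins to the nucleus, rose from 20071 to 25704 and 24643 normalized counts. SETD7, a lysine methyltransferase, rose from 3349 to 5218 and 5213. The median of the list was -0.09 in mock and -0.04 in sample cells. In neural crest and glial markers, 1 of 11 tested rose and 4 fell in mock cells, and 1 of 10 rose and 3 fell in sample cells. OLIG2 rose from 176 to 602 and 542, and ERBB3 fell from 184 to 22.2 and 28.1. SOX10, the SOX gene that defines that lineage, had no reads. Neither the cofactor list nor the neural crest and glial list was tested.

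Of the 10 SOX genes outside the 9, SOX18 and SOX17, both of the endothelial group F, had a mean above 10 normalized counts. SOX18 was at 48.7 and 51.3 in untransfected libraries, 10.6 and 13.9 in mock libraries, and 14.9 and 24.7 in sample libraries. All transfected libraries were below the untransfected ones. SOX18 fell in mock cells, with a deposited log2 fold change of -1.65 (adjusted p = 0.000198, DESeq2), and was not called in sample cells (-1.01, adjusted p = 0.0679, DESeq2), where limma called it (-1.53, adjusted p = 0.00423). SOX17 was at 292 and 309, 260 and 296, and 240 and 206 in the same order and was not called. SOX7 and SOX15 were below 21 normalized counts in every library. SOX1, SOX3 and SOX10 had no reads, and SOX14, SOX21 and SOX30 had few.

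**Figure D4:**
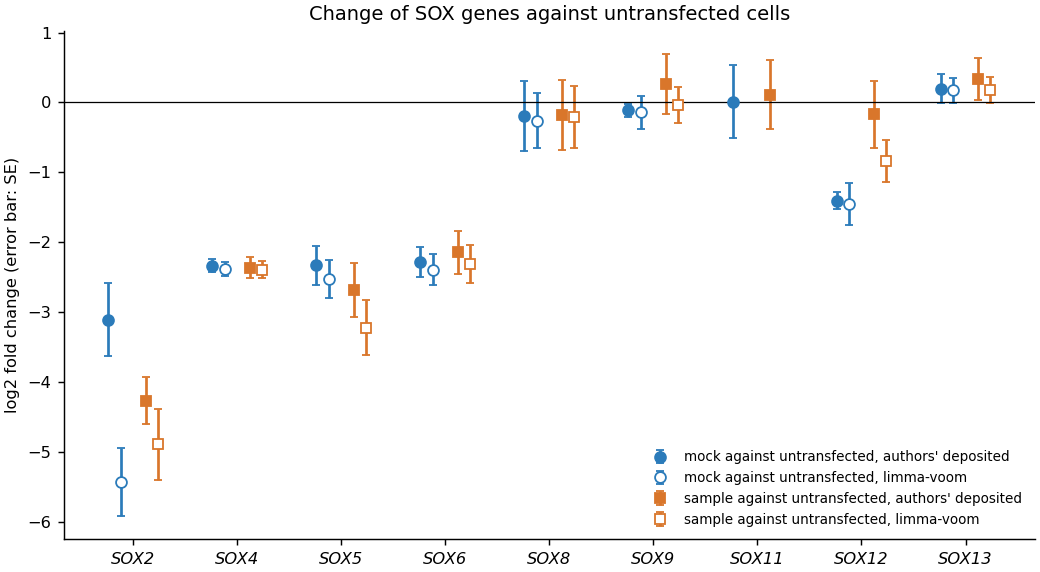
Log2 fold change of each SOX gene in mock (blue circles) and sample cells (orange squares) against untransfected cells, filled for the authors' deposited values and open for limma-voom, with standard errors as bars. SOX4, SOX5 and SOX6 lie between -2.14 and -3.22, SOX2 reaches -5.43 in the limma fit, and the deposited values of SOX12 are -1.41 in mock and -0.17 in sample cells. SOX11 has no limma value.

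Per kilobase of transcript, the scale on which levels of different genes can be compared, 7 genes could be ordered. SOX5 and SOX13 were left out because their transcript ends differ between annotations. That check was made only for genes of more than 1 exon. Genes of 1 exon took the span of the kept entry, which for SOX4 was 4879 bases against 5852 in GENCODE 29. In untransfected cells the order was SOX4 (657 ± 63.0 normalized counts per kilobase, SD, n = 2), SOX9 (359 ± 13.1), SOX12 (216 ± 11.9), SOX2 (178 ± 29.2), SOX6 (39.6 ± 7.58), SOX8 (4.96 ± 1.73) and SOX11 (1.05 ± 0.0137). No neighbours in that order overlapped between libraries. In mock cells SOX9 stood first at 328 ± 0.914, ahead of SOX4 at 127 ± 2.88, SOX12 at 79.5 ± 2.43, SOX6 at 7.49 ± 0.0660, SOX2 at 4.59 ± 3.88, SOX8 at 4.03 ± 0.544 and SOX11 at 1.05 ± 0.128. There the libraries of SOX2 and SOX8 overlapped. In sample cells SOX9 was at 456 ± 259, SOX12 at 181 ± 126, SOX4 at 120 ± 17.2, SOX6 at 6.97 ± 2.63 and SOX2 at 5.42 ± 0.707. SOX12 overlapped SOX4 there, and SOX6 overlapped SOX2.

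Sample cells were compared with mock cells, which were transfected as well but lacked the light-controlled plasmids. No SOX gene was called, 0 of 9, in the authors' deposited table, and 0 had an unadjusted p under 0.05 there or by limma, which also called 0. The smallest unadjusted p of the 9 was 0.119. In the same comparison 0.0785% of 15287 genes were called, and 0.0134% of 14893 by limma. For SOX5 both sample libraries were below both mock libraries, and for SOX12 both were above. Such separations occurred at 19.1% and 15.3% of all tested genes. The deposited log2 fold changes, strongly shrunk in this comparison, ran from -0.07 to 0.12, and limma gave -0.69 (SE 0.45) for SOX5, 0.62 (SE 0.34) for SOX12, 0.54 (SE 0.69) for SOX2, -0.01 (SE 0.13) for SOX4 and 0.08 (SE 0.32) for SOX6. In pooled reads the ratio of sample to mock was 101% for SOX4 (exact 95% interval 93.2% to 110%), 116% for SOX2 (64.1% to 207%) and 62.6% for SOX5 (40.0% to 95.8%). These intervals cover counting error only and weigh the deeper library more. A p that misses the threshold does not show that the groups were alike. Without sample library a, limma called SOX9 (0.96) and SOX12 (1.77) higher in sample than in mock cells.

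The difference between the sample libraries touched SOX genes in both directions. Library b exceeded library a 2.94-fold at SOX12, 2.34-fold at SOX9 and 1.61-fold at SOX13, on normalized counts plus 1. These ratios stood above those of 99%, 97.7% and 92.9% of 14893 genes. At SOX11 library b was at 0.307 of library a, on 20 reads and 1 read. At least 2-fold differences between the sample libraries occurred in each direction at 3.65% of genes. Depth differed too, with 9579278 reads summed over entries against 50105854, and its part in these differences was not tested.

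**Figure D5:**
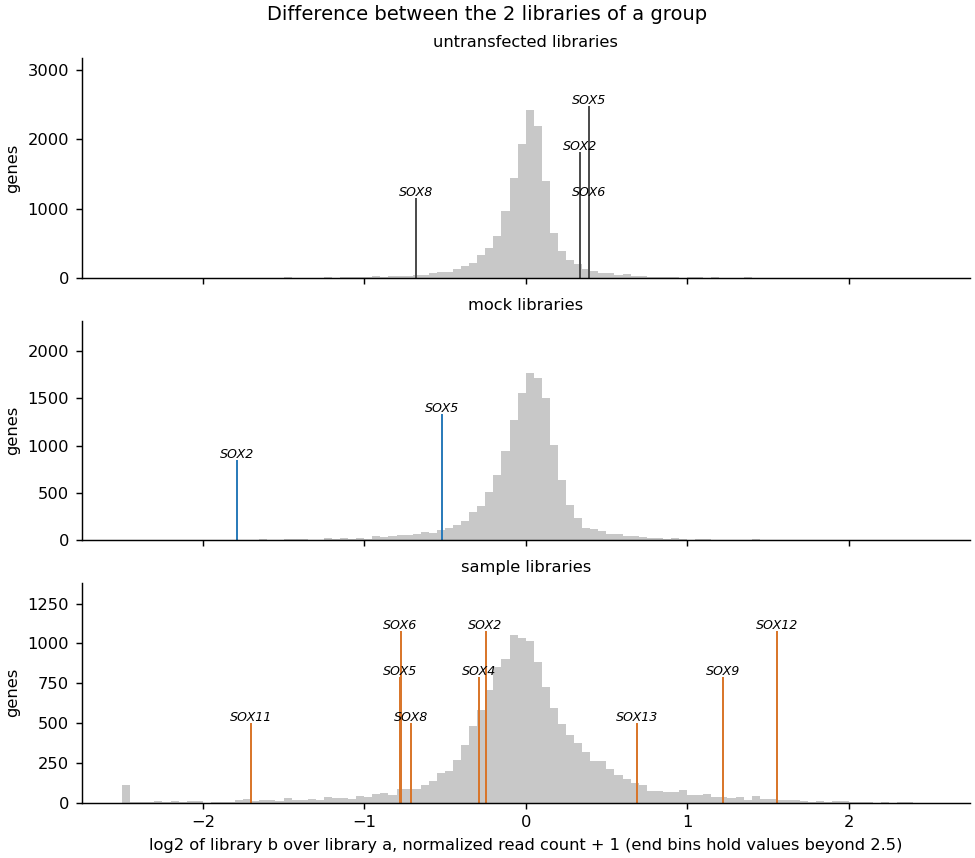
Number of genes (grey) by the log2 ratio of library b to library a of each group, of 14893 genes, with SOX genes as coloured lines; all 9 are drawn for the sample libraries and those at least 0.3 from 0 for the others. SOX12, SOX9 and SOX13 lie on the right and SOX11 on the left edge of the sample distribution, which is wider than the other distributions.

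The genes nearest in pattern were sought among 12578 genes that averaged 50 or more normalized counts, by the root mean square difference of centred log2 values over the 6 libraries. Nearest to SOX4 were KCNMB4 (0.060) and NR3C2 (0.061), and NR3C2 was also nearest to SOX6 (0.14). SOX12 was followed most closely by SALL2 (0.050), at 198 and 228 normalized counts in untransfected libraries, 78.7 and 76.0 in mock libraries and 91.5 and 280 in sample libraries. LIMS2 (0.11) was next. Nearest to SOX9 were MIDN (0.048) and PCBP2-OT1 (0.061), both also high in sample library b. SOX2 had no close neighbour: FAM13C (0.38) and LINC02159 (0.41) were the nearest. SOX5 had KNDC1 (0.16) and MIAT (0.21), SOX8 had AFG3L1P (0.066) and SOGA3 (0.077), SOX11 had CLHC1 (0.18) and RAB24 (0.20), and SOX13 had HECTD3 (0.027) and MIR550A3HG (0.032). For SOX13 as many as 1310 genes lay within 0.2, and for SOX2 0 did.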

How the data were processed

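RNA of 6 libraries was isolated and prepared with directional kits, per the labels' protocols. The submitters' processing notes name hg38, STAR, Bowtie and DESeq2, and for these the version, the annotation and the counting step were not given in the sources used here. What the authors deposited is 3 tables of comparisons, each over 4 libraries and 40029 transcript entries. Per the file headers, their columns are the mean normalized signal of an entry, its log2 fold change with an error, the Wald score, the p-value and the adjusted p-value, all by the authors. The values show fold changes shrunk toward 0, which understates changes of low or variable genes.

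Whole read counts per library were solved from the deposited means by lattice reduction, for all 30527 entries with reads within a relative tolerance of 1e-14, and the method was tested on simulated data. Replicate numbers could not be tied to libraries. Symbols were matched for 39722 entries (99.2%), and the other 307 held 0.0666% of reads summed over entries. The tables give means and not counts, so the authors' test is the main one, with a threshold of 0.05. The alternative was limma-voom (limma 3.58.1, R 4.3.3) on recovered counts of 14893 genes with a mean of at least 10, scaled by median-of-ratios size factors, with p-values adjusted by Benjamini-Hochberg. SOX11 fell under that minimum. Intervals of count ratios are exact binomial ones and cover counting error only.

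The SOX genes and the 13 gene lists were chosen with earlier results of these data known. By rule, at most 4 called members with the largest means were named from each list. Some genes that meet the rule are left out, and others were added after their values were seen. Other SOX genes were named when called or at a mean of at least 10, and so were the 2 nearest genes in pattern for each member. Other alternatives changed the threshold, the filter, the library size, the summing of entries and the libraries kept. Python 3.11.15, numpy 2.4.6, scipy 1.17.1, pandas 2.3.3 and matplotlib 3.10.9 were used.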

Additional observations from a re-analysis of the deposited data

How the results depend on the processing

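The 5 SOX genes lower in mock cells, SOX2, SOX4, SOX5, SOX6 and SOX12, were called under every alternative run, which covered thresholds, filters, library sizes, summed entries and each library left out. The genes were chosen with these values known, so this describes the settings and supports nothing further. In sample against untransfected cells SOX2, SOX4, SOX5 and SOX6 were called under every alternative, and the count of called genes ran from 4 to 6 when single libraries were left out. It was 6 without sample library a, which added SOX9 (0.82) and SOX13 (0.73) as higher, and 6 without sample library b, which added SOX9 (-0.39) and SOX12 (-1.22) as lower. With limma on all 6 libraries the count was 5, with SOX12, whose adjusted p of 0.0415 rose to 0.0730 when only the 4 libraries of the comparison were fitted. In sample against mock cells the count ran from 0 to 2 when single libraries were left out, with SOX9 and SOX12 called higher without sample library a. A library left alone in its group is assumed there to vary like the other groups. Among the values of single genes, 22 of 98 in mock against untransfected cells moved by more than 1 standard error, 41 of 97 in sample against untransfected cells and 53 of 96 in sample against mock cells, where the deposited values are shrunk most. No paired analysis was possible because the replicate numbers of the labels cannot be tied to the libraries recovered from the deposited means. The low depth of sample library b limits SOX2, SOX5, SOX6, SOX8 and SOX11 there, on 1 to 11 reads.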
